A study of Mus musculus with 2 samples.

Results

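The genes described here are 47 molecular chaperones, co-chaperones and stress regulators of the heat shock and endoplasmic reticulum (ER) stress systems, taken from 22911 named genes on the array. They were chosen by symbol, with earlier results of these data known. Of them, 17 belong to the cytosolic heat shock system, 3 to the mitochondrial chaperones and 7 to the CCT ring. The other 20, called ER genes here, are 15 ER folding and quality control genes and 5 stress regulators, whose products need not reside in the ER. The RNA came from regulatory T cells (Tregs) of mouse kidney, taken on day 28 after cGN was induced with antibody against the glomerular basement membrane (anti-GBM), and sorted as CD45+CD3e+CD4+FoxP3-hCD2+ cells. FoxP3-hCD2 is a reporter that puts human CD2 on cells in which Foxp3 is active. Both groups had cGN and passed the same sort. They differed in the lot of anti-GBM antibody, I or M, with 1 array for each; per the labels, how severe the disease became varied with the lot. Strain, sex, age, the number of mice per array and samples without cGN are not given in the sources used here.

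Chaperones bind unfolded stretches of protein and help them fold. In the cytosol, HSP70 and HSP90 machines work with J-domain proteins and nucleotide exchange factors, and the transcription factor HSF1 switches on many of their genes when unfolded protein accumulates. The ER has its own set, built around BiP, which is switched on by the sensors IRE1, PERK and ATF6 in the unfolded protein response. Mitochondria fold imported proteins in the HSP60 and HSP10 chamber, and the CCT ring of the cytosol folds actin and tubulin. In lymphocytes both systems respond to activation and to physical stress such as warming.

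Levels are log2 signals relative to the 75th percentile of their array, averaged over those probes of a gene that rose well above background on each array. A level is compared between the arrays for the same gene and never between genes. A difference is array 2 minus array 1. The sample labels give lot I to the scanner output of array 1 and lot M to that of array 2, whereas the deposited value table carries the values of each array under the opposite lot, so the sign cannot be tied to a lot. The ± is the scanner's spot error carried to the difference, and holds no variation between mice, sorts or lots. It is nearly the same for every bright probe and is combined over the probes of a gene as if they were independent. A gene with more probes therefore has a smaller ± and passes a given number of errors at a smaller difference. With 1 array per lot no test was possible and no p-value is given. Genes measured on both arrays numbered 13743, and their median difference was 0.01. The 8 spike-in RNAs measured on both arrays differed by 0.01 to 0.08 (median 0.06). Above the 75th percentile, repeated spots of one probe had a median SD of 0.034 on array 1 and 0.033 on array 2, which makes 0.048 and 0.047 for a difference between single spots and is smaller than the scanner's error of 0.20 for 1 probe.

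All 47 genes were well above background on both arrays, in 83 of their 84 probes. The cytosolic heat shock genes had a median of 0.28 (1.22-fold), and 13 of the 17 were higher in array 2. Among all genes 53.8% were above 0. The 3 mitochondrial genes had a median of 0.29, the 7 CCT genes 0.10, the 5 regulators 0.05 and the 15 ER folding genes 0.01. Of the cytosolic genes, 13 had a larger difference than any of the 20 ER genes and than any CCT gene. At a log2 difference of 0.32 or more, 9 of the 47 genes were higher in array 2, 8 of them cytosolic and 1 mitochondrial, and 0 were higher in array 1. Over all genes the shares at that limit were 10.6% and 4.13%. At 1.5-fold, 1 gene (Hsph1) was higher in array 2 and 0 in array 1, against 5.15% and 0.815% of all genes. No member reached 2-fold, a limit passed by 1.34% of all genes in array 2 and 0.0873% in array 1. In bulk RNA fewer cells of a type and less RNA per cell cannot be told apart, and tubule and macrophage markers were also higher in array 2, with values given further on. These chaperones are mostly bright, and 43 of the 47, with all 9 past 0.32, had a mean level above the 75th percentile. Among the 7793 genes that bright, the shares in array 2 were 53.2% above 0, 3.88% at 0.32 or more and 1.68% at 1.5-fold.

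**Figure D1:**
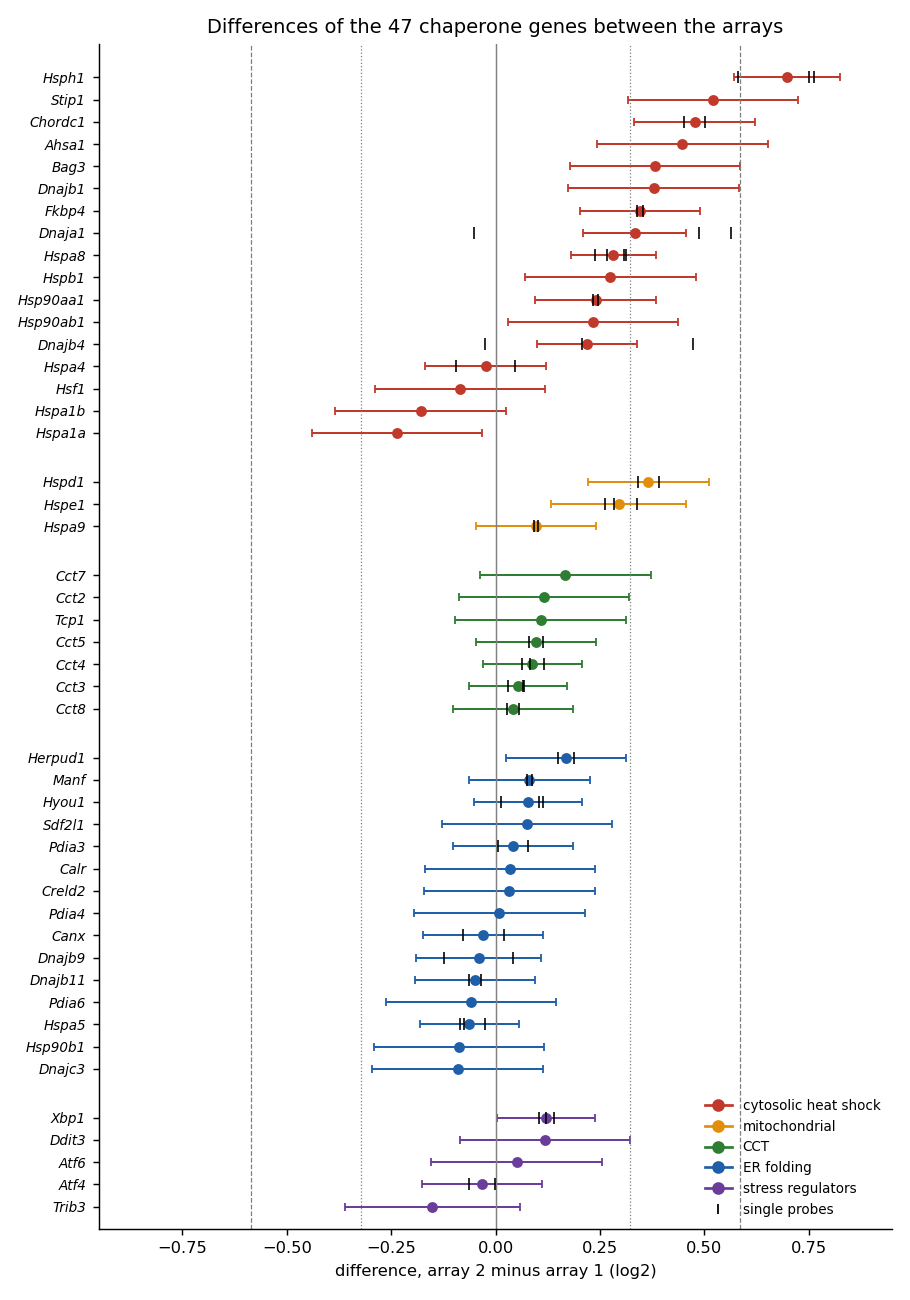
Difference of each gene between the arrays (log2, array 2 minus array 1), by group and sorted within it; bars are ± 1 scanner error, black ticks are single probes of genes with several, and dotted and dashed lines mark 0.32 and 1.5-fold. Most cytosolic genes lie to the right of every ER gene, from 0.22 for Dnajb4 to 0.70 for Hsph1, while Hspa1a, Hspa1b, Hsf1 and Hspa4 lie left of 0.

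The largest difference belonged to Hsph1, the cytosolic HSP110 that exchanges nucleotide on HSP70 and pulls apart aggregates together with it. Its level was 1.80 on array 1 and 2.49 on array 2, a difference of 0.70 ± 0.13 (1.62-fold). Its 3 probes differed by 0.58, 0.75 and 0.76, the smallest in a dim probe at -3.19 on array 1, and all 3 were higher in array 2. With normexp background correction the mean of the 3 was 0.56, just under 1.5-fold. The related gene Hspa4, of the same HSP110 branch, was at 4.82 and 4.80 (-0.02 ± 0.14), with 1 probe on each side of 0.

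Co-chaperones of HSP90 came next. HSP90 acts late in folding on kinases and steroid receptors, and its partners load clients or drive its ATPase. Stip1, which bridges HSP70 and HSP90, stood at 2.83 on array 1 and 3.35 on array 2 (difference 0.52 ± 0.20). Chordc1, an HSP90 co-chaperone, stood at 1.98 and 2.45 (0.48 ± 0.14), with 0.45 and 0.50 from its 2 probes. Ahsa1, the activator of the HSP90 ATPase, stood at 7.57 and 8.01 (0.45 ± 0.20). All 3 lay past 0.32 and past 2 errors, and 10.2% of all genes lay past 2 errors in either direction. Fkbp4, an immunophilin of steroid receptor complexes, went from 1.79 on array 1 to 2.13 on array 2 (0.35 ± 0.14), and its 2 probes gave 0.34 and 0.35. The HSP90 genes themselves had smaller differences, though the gaps to these partners are close to the size of the errors: Hsp90aa1, the stress-inducible form, had levels of 5.26 and 5.50 (0.24 ± 0.14), and Hsp90ab1, the constitutive form, 8.31 and 8.55 (0.23).

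Among the members that steer HSP70, Dnajb1, Bag3, Dnaja1 and Dnajb4 were higher in array 2, Dnaja1 and Dnajb4 with probes of both signs. Dnajb1, the classical heat-inducible J-protein, had levels of 6.35 and 6.73 (0.38 ± 0.20). Bag3, an HSP70 exchange factor that also feeds clients into autophagy, had levels of 3.24 and 3.62 (0.38 ± 0.20). Both rest on 1 probe. The probes of Dnaja1, a J-protein of the constitutive HSP70, disagreed: the brightest, at 7.11 and 7.60, differed by 0.49, a second by 0.56, and the dimmest, at -2.29 and -2.34, by -0.05. Their mean was 0.33 ± 0.12, at gene levels of 1.27 and 1.60. Those of Dnajb4 disagreed too, with 0.47, -0.03 and 0.21 and a mean of 0.22, at gene levels of -0.58 and -0.36.

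Within the HSP70 genes the direction was split. Hspa8, the constitutive Hsc70, had levels of 6.47 on array 1 and 6.76 on array 2 (0.28 ± 0.10), and its 4 probes agreed at 0.24, 0.27, 0.31 and 0.31. The heat-inducible genes Hspa1a and Hspa1b went the other way. Hspa1a was at 6.38 and 6.14 (-0.24 ± 0.20) and Hspa1b at 5.61 and 5.43 (-0.18 ± 0.20). These are near-identical neighbouring genes with 1 probe each, so the source of either signal is uncertain, and they do not count as separate observations. Hsf1 itself was at 2.89 and 2.81 (-0.09 ± 0.20), and the small heat shock gene Hspb1, whose protein holds unfolded clients in solution, at 0.89 and 1.16 (0.27). The 4 cytosolic members below 0 were therefore Hspa1a, Hspa1b, Hsf1 and Hspa4, and none of them passed 0.32 in size.

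**Figure D2:**
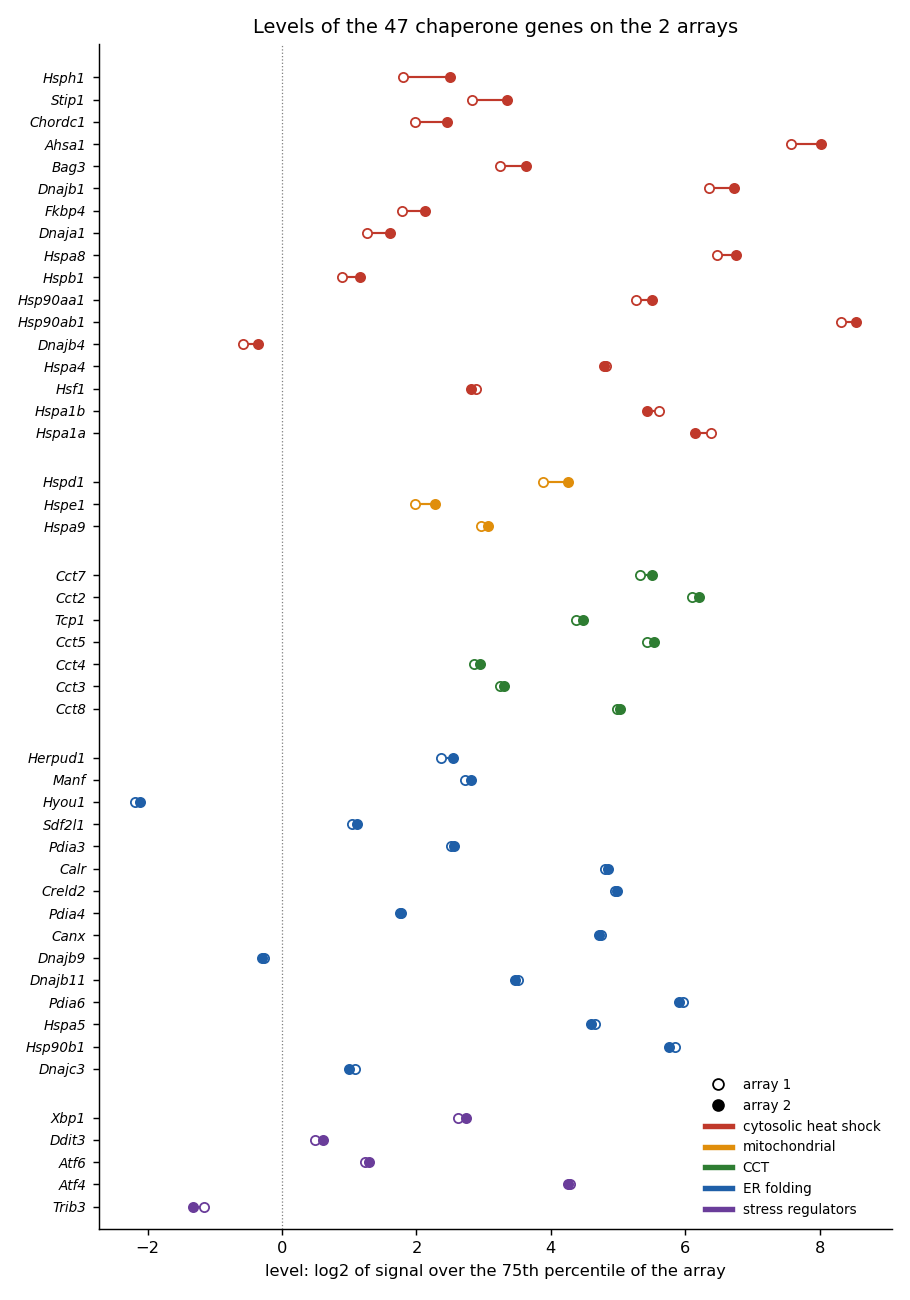
Level of each gene on array 1 (open) and array 2 (filled), in log2 units relative to the 75th percentile (dotted line at 0), with genes in the order of the plot of differences; horizontal positions of different genes are not comparable. The filled point lies right of the open one in 13 of the 17 cytosolic, all 3 mitochondrial, all 7 CCT and 8 of the 15 ER folding genes. The pairs of the CCT and ER folding genes lie close together.

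The mitochondrial chaperones were higher in array 2 in each of their 7 probes. Hspd1, the HSP60 that forms the folding chamber, had levels of 3.88 and 4.25 (0.37 ± 0.14), with 0.34 and 0.39 from its 2 probes. Hspe1, the HSP10 lid of that chamber, had levels of 1.98 and 2.28 (0.29 ± 0.16), with 0.26, 0.28 and 0.34 from its 3 probes, the last at the edge of detection (-4.45 on array 1). Hspa9, the mitochondrial HSP70 that pulls proteins through the import channel, was at 2.97 and 3.06 (0.10). Hspd1 and Hspe1 lie head to head on the genome and share the stretch between their starts.

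Heat shock elements were searched in the RefSeq promoter windows of 250 bases before to 50 after a start, which were at hand for 38 of the 47 genes. HSF1 trimers bind alternating GAA and TTC units. A pair of units (GAANNTTC or TTCNNGAA, each the same on both strands) was found in 9 of 13 cytosolic genes, both mitochondrial genes with a window, 2 of 6 CCT genes and 0 of 17 ER folding and regulator genes. It was present in 17.0% of all 27025 genes with a window and in 15.1% of the 32851 windows. Overlapping pairs that make 3 units in a row, with 2 free bases between units, were present in 0.603% of all windows and 0.662% of all genes with a window. Among the members they were found in Hsph1, Chordc1, Hspd1 and Hspe1. These 4 genes differed by 0.70, 0.48, 0.37 and 0.29. Stip1 (0.52) and Ahsa1 (0.45) had no pair in their windows, and a link between element and difference was not tested. The elements of the 4 genes are shown as 30 bases 5′ to 3′ on the strand of the gene (GRCm38.p6), with the units in capitals. For Hspd1 and Hspe1 they are the same bases read from opposite strands. The pair in the windows of Hspa1a and Hspa1b, which were lower in array 2, is shown as well, and those stretches are identical. Only exact units were searched, so longer elements with a changed base, in these or other windows, were not counted.
Hsph1, chr5:149636279-149636308, minus strand: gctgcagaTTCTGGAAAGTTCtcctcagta
Chordc1, chr9:18292260-18292289, plus strand: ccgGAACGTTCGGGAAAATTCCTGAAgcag
Hspd1, chr1:55088053-55088082, minus strand: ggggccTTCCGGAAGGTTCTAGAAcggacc
Hspe1, chr1:55088053-55088082, plus strand: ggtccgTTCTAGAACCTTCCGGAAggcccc
Hspa1a, chr17:34972242-34972271, minus strand: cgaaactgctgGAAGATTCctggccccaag
Hspa1b, chr17:34959324-34959353, minus strand: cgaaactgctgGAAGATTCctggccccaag

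Outside the chaperones, the share of genes higher in array 2 among those with a match was not above that of all genes. Of 62 genes measured on both arrays whose window held the 3-unit element, 58 were not members, and 27 of these (46.6%) lay above 0 (median -0.01). Of 1549 other genes with a pair of units, 52.9% were higher, with a median of 0.01. Of the 13 cytosolic members with a window, 9 had a pair, and Stip1, Ahsa1 and Dnajb1 were among those without.

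The CCT ring was higher in array 2 by a small and even amount. All 7 subunit genes were above 0, in all 13 probes, from 0.04 for Cct8 (levels 4.98 and 5.03) to 0.17 for Cct7 (5.33 and 5.50). In between lay Cct3 at 3.25 and 3.30 (0.05), Cct4 at 2.86 and 2.95 (0.09), Cct5 at 5.43 and 5.53 (0.10), Tcp1, the founding subunit, at 4.37 and 4.48 (0.11), and Cct2 at 6.09 and 6.21 (0.12). No single one exceeded its error, whereas 28.6% of all genes did. With scaling by the spike-ins their median was 0.04. Cct8 and Cct3, whose differences are smaller than the spike-in median of 0.06, fall below 0 with that scaling. The subunit outside this set, Cct6a, differed by 0.16 ± 0.14. Prefoldin hands unfolded actin and tubulin to the ring. Its genes Pfdn1, Pfdn2, Pfdn4, Pfdn5 and Vbp1 lay between -0.15 and -0.001, and with Pdcl3 and Cct6a that list had 1 of 7 genes above 0.

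ER chaperones and folding enzymes differed between the arrays by less than their error, apart from Herpud1. Of all genes, 28.6% differed by more than their error. Hspa5, which encodes BiP and is the usual readout of ER stress, had levels of 4.66 and 4.60 (-0.06 ± 0.12), and its 3 probes all lay between -0.09 and -0.03. Hsp90b1, the HSP90 of the ER, was at 5.85 and 5.76 (-0.09). Hyou1, the large exchange factor of BiP, was at -2.19 and -2.12 (0.08). The 15 genes split evenly, with 8 above 0 and 7 below, and 15 of their 25 probes above 0. Their whole range ran from -0.09 to 0.17.

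The J-proteins that work with BiP had gene means slightly below 0, but the 2 probes of Dnajb9 gave -0.12 and 0.04. Dnajb9 was at -0.26 and -0.30 (-0.04), Dnajb11 at 3.51 and 3.46 (-0.05, without its probe that was not well above background), and Dnajc3, which also restrains PERK, at 1.08 and 0.99 (-0.09). Each of these lay within its error. The lectin chaperones of glycoproteins were level: Calr was at 4.81 and 4.84 (0.03) and Canx at 4.75 and 4.72 (-0.03). The disulphide isomerases were level as well, with Pdia3 at 2.51 and 2.55 (0.04), Pdia4 at 1.75 and 1.76 (0.01) and Pdia6 at 5.96 and 5.90 (-0.06). Manf, a secreted ER stress factor, was at 2.73 and 2.81 (0.08), Creld2, a cysteine-rich ER protein, at 4.95 and 4.99 (0.03), and Sdf2l1, a partner of BiP complexes, at 1.04 and 1.12 (0.08). Herpud1, which brings misfolded proteins to ER-associated degradation, had the largest difference of the group, 2.37 against 2.54 (0.17 ± 0.14), with 0.15 and 0.19 from its 2 probes.

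The regulators of the response had small differences of both signs, and Xbp1 alone just exceeded its error, as did 28.6% of all genes. Xbp1, the transcription factor that IRE1 activates by splicing, was at 2.61 and 2.74 (0.12 ± 0.12), and its 3 probes gave 0.10, 0.12 and 0.14; its splicing was not measured. Atf4, which is controlled mainly through translation, was at 4.29 and 4.26 (-0.03 ± 0.14). Atf6, the sensor that is cleaved to a transcription factor, was at 1.24 and 1.29 (0.05). Ddit3, which encodes the death-associated factor CHOP, was at 0.49 and 0.61 (0.12 ± 0.20), and Trib3, a target of both ATF4 and CHOP, at -1.17 and -1.32 (-0.15). The 5 genes thus went in both directions, 3 above and 2 below 0.

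Another promoter motif was found among the ER folding genes, though not in the regulators. The ER stress element is CCAAT and CCACG with 9 bases between them on either strand. It was found in 7 of 13 ER folding genes with a window and in 0 of the other 25 members. It was present in 0.119% of all windows and in 0.137% of all genes with a window. Neither the UPR element (TGACGTGG or CCACGTCA, 0 of 38) nor the ATF4 element (TGATGCAA or TTGCATCA, 1 of 38, in Herpud1) was common among members; all windows held them at 0.676% and 0.895%. The windows of 3 genes whose levels hardly differed show the element in capitals, again as 30 bases on the strand of the gene in GRCm38.p6.
Hspa5, chr2:34772020-34772049, plus strand: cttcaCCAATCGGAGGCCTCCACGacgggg
Pdia6, chr12:17266486-17266515, plus strand: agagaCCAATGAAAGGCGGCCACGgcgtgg
Canx, chr11:50325794-50325823, minus strand: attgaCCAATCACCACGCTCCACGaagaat

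**Figure D3:**
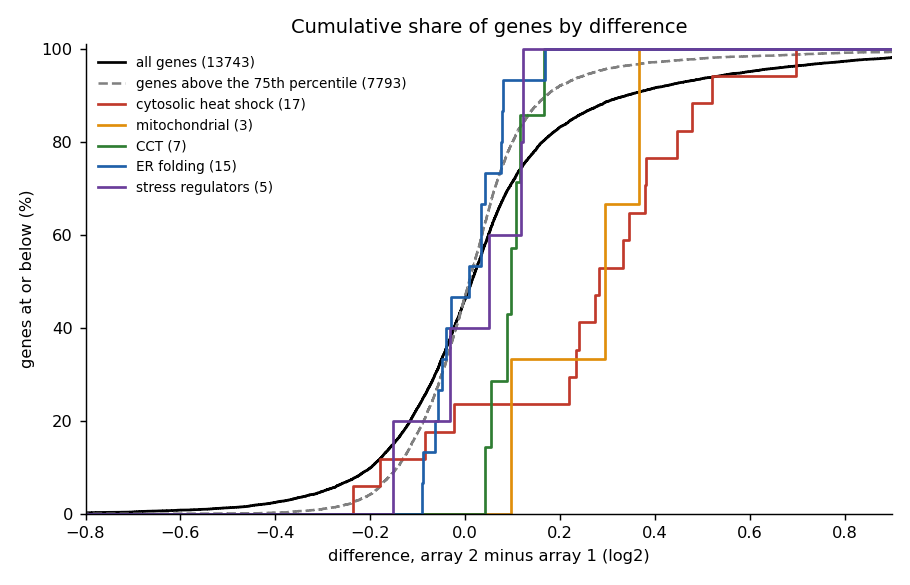
Cumulative share of genes (percent, vertical) at or below a difference (log2, array 2 minus array 1, horizontal) for all 13743 genes, for the 7793 genes above the 75th percentile and for the 5 groups. The cytosolic and mitochondrial curves lie right of the curve of all genes for most of their course, with medians of 0.28 and 0.29 against 0.01, while the ER folding curve crosses 0 near its middle.

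Further lists of genes from these pathways had medians near 0. Like the members, these lists were chosen with earlier results of these data known, so they do not settle how far the difference extends. Of 22 genes listed as further cytosolic chaperones, 20 were measured on both arrays, 10 of them higher and 10 lower, with a median of -0.001. Those past 0.32 were Cryab, a small heat shock protein (0.35 on array 1 and 0.83 on array 2, 0.48 ± 0.20), and Dnaja4, a J-protein (0.57 and 0.95, 0.37 ± 0.15). Dnajb2, also a J-protein, followed just under that limit (0.01 and 0.33). Hsf2, a relative of Hsf1, was lower (-0.20 ± 0.20). Further mitochondrial stress genes had 5 of 13 above 0 and a median of -0.01. Largest in size, whatever the sign, were Dnaja3, the mitochondrial J-protein (0.27 ± 0.20), Trap1, the mitochondrial HSP90 (-0.14), and the exchange factor Grpel2 (0.13).

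In the ER, the sensors and degradation genes had 10 of 18 above 0 and a median of 0.02. The sensor genes Ern1 (-0.03) and Eif2ak3 (-0.12), which encode IRE1 and PERK, were not higher in array 2. By size, whatever the sign, Edem3, which trims sugars on misfolded proteins, had the largest difference (0.30 ± 0.17). Next by size were Derl3 (0.17 ± 0.23) and Erlec1 (-0.14 ± 0.14). Further ER folding genes had 10 of 17 above 0 and a median of 0.01. Pdia5 was past 0.32 (0.54 ± 0.31), at a level near the detection floor (-3.84 on array 1). Next by size were Creb3l2 (0.29 ± 0.20) and Dnajc10 (-0.22 ± 0.13). Targets of ATF4 had 7 of 15 above 0 and a median of -0.003. Among them Chac1, which degrades glutathione, was at -3.89 and -2.86 (1.03 ± 0.29), from 1 probe near the detection floor on array 1. Ddit4, an inhibitor of mTORC1, was at 6.23 and 6.79 (0.56 ± 0.20), and Nupr1, a stress-induced chromatin protein, at -0.93 and -0.51 (0.42 ± 0.21). The amino acid genes of the same list did not follow them, with Asns at -0.05, Psat1 at -0.03 and Phgdh at -0.04.

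Markers of some other cell types were higher in array 2 along with the heat shock genes, and those of others were not. All 10 proximal tubule markers were higher in array 2, by 0.96 to 1.59 (median 1.18), and their summed level went from 6.40 to 7.46. All 8 measured markers of distal nephron and collecting duct were higher (0.07 to 1.60, median 0.58, summed level 6.56 and 6.98, Scnn1b not well above background), and so were all 10 of macrophages and monocytes (0.04 to 0.46, summed level 4.92 and 5.30). Endothelial markers had 4 of 7 above 0 (median 0.03, summed level 1.90 and 1.88, Tie1 not measured on both arrays), and B and plasma cell markers 3 of 6 (median -0.11, summed level 2.999 and 2.795). Of 6 fibroblast and mesangium markers 3 were measured on both arrays, Col1a1 at 0.34, Col1a2 at 0.40 and Dcn at -0.41, while Col3a1, Pdgfrb and Lum were not. The 11 Treg and T cell markers, Foxp3, Cd3e and Cd4 among them, were all well above background, with 5 above and 6 below 0 and a summed level of 9.62 on both arrays. Chaperones are made by all of these cells, and the part of tubular or myeloid RNA in their differences was not tested. Immediate early genes, which respond to dissociation, had 4 of 8 above 0, with Fos (-0.31 ± 0.20) and Fosb (-0.33 ± 0.20) lower in array 2 like Hspa1a and Hspa1b, while Jun differed by -0.07, Dusp1 by 0.10 and Egr1 by 0.13.

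**Figure D4:**
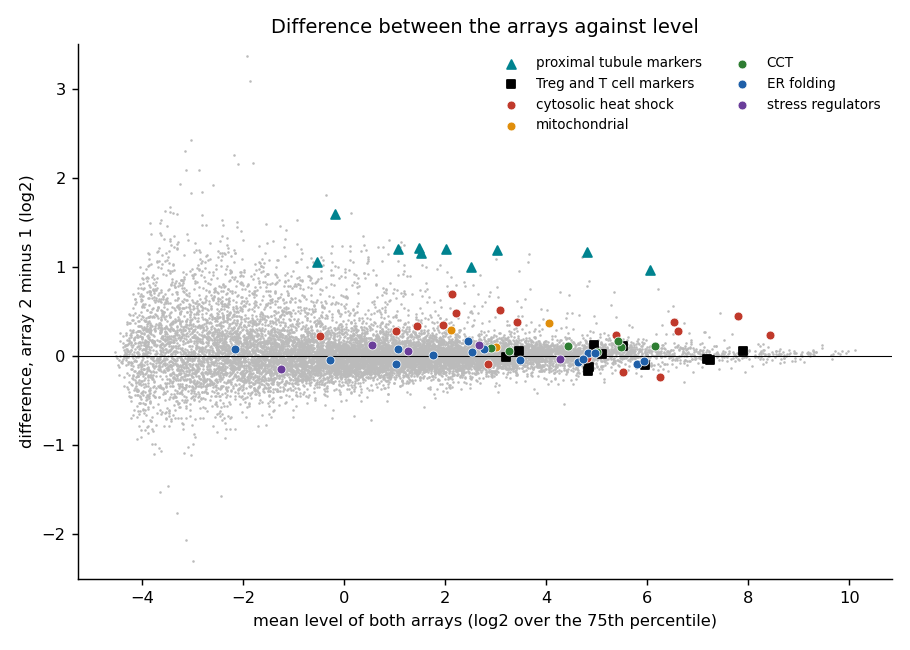
Difference between the arrays (log2, array 2 minus array 1) against the mean level of both arrays for all 13743 genes (grey), the chaperone groups (coloured circles) and the markers of proximal tubule (triangles) and of Tregs and T cells (squares). The tubule markers lie between 0.96 and 1.59, above every chaperone, the T cell markers between -0.17 and 0.12, and the cytosolic chaperones reach 0.70.

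The gap between the cytosolic and ER folding genes was of like size under other ways of processing, but the order of the other groups was not fixed. The median of the cytosolic genes minus that of all genes lay between 0.26 and 0.31 in 13 alternatives, that of the ER folding genes between -0.01 and 0.02, and the gap between the cytosolic and ER folding medians between 0.24 and 0.30. Of the 13, 3 shift every gene by 1 constant (scaling by the median of genes, scaling by spike-ins and no scaling) and leave these values as they are by construction. Among the other 10, keeping outlier spots changed none of these values. Dropping or tightening the filter on dim probes left the gap as reported, at 0.27. The ranges therefore rest on fewer than 10 alternatives. The mitochondrial median was above the cytosolic one as reported and below it in 8 alternatives, normexp (0.21 against 0.27) among them, and under normexp the regulators (-0.006) lay below the ER folding genes (0.004). The value table, left out here, turns every sign.

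**Figure D5:**
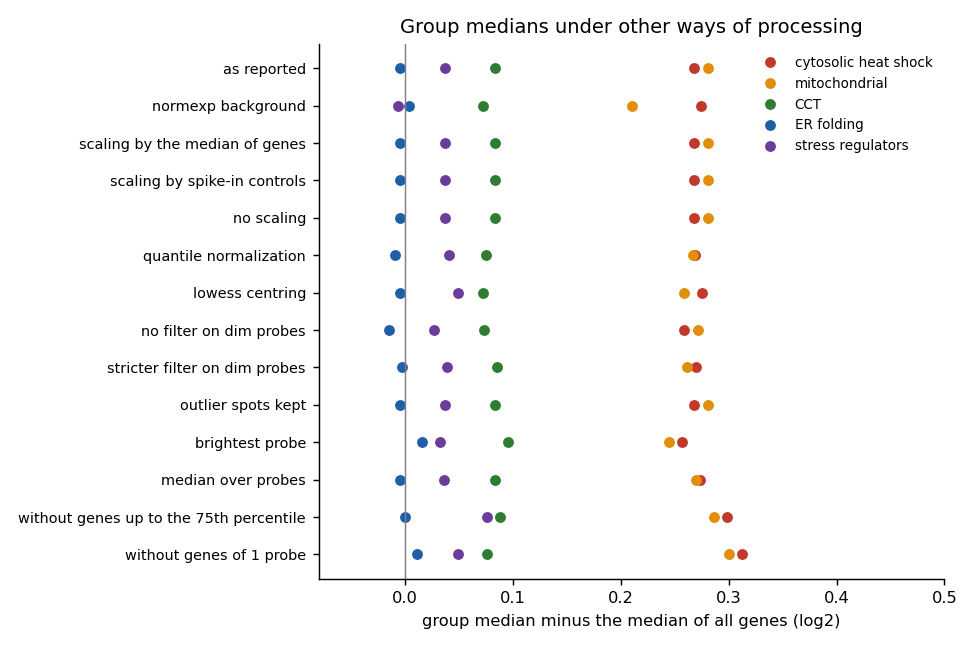
Median difference of each group minus the median of all genes (log2, horizontal) as reported and under 13 alternatives (vertical), of which the 3 changes of scaling cannot move these values. The cytosolic and mitochondrial medians stay between 0.21 and 0.31, the CCT median between 0.07 and 0.10, and the ER folding and regulator medians between -0.01 and 0.08.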

How the data were processed

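Each lot gave 1 single-colour mouse array of Cy3-labelled total RNA. Agilent Feature Extraction 10.7.1.1 read the spots, per the file headers. The deposited processed signal intensity is background-subtracted and detrended within each array, per the file headers, and not normalised between arrays; raw spot and background intensities, an error and detection flags of 0 or 1 accompany it. The deposited value table holds a linear ratio per probe made in a way that the sources used here do not give. Set against the scanner output, its lot M column follows array 1 (SD of log2 signal over value 0.00016, against 0.156 for the other column), and its lot I column array 2.

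Control spots (3671 per array) and outlier spots (75 and 56) were left out, and no spot was saturated. The log2 signal minus the array's 75th percentile was averaged over spots of a probe. Of 56605 probes, 30576 on array 1 and 30558 on array 2 were well above background. RefSeq accessions named 32994 probes (GRCm38.p6 table, used for names because the array design states another build). Probes that passed this flag on each array were averaged to a gene's difference. The number of arrays limits the precision. Calls are by size, at 1.5-fold, with a log2 difference of 0.32 and 2-fold beside it. The calculation was tested on simulated data. Tools were Python 3.11.15, pandas 2.3.3, statsmodels 0.14.6 and, for normexp, limma 3.58.1. No mean signal column is held in the scanner output used, so normexp (offset 50) took the median signal.

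The 47 members and all lists were chosen with earlier results of these data known. All members are given with their levels; errors are printed for those past 0.32 or 2 errors and for Hspa1a, Hspa1b, Hsp90aa1, Hspa5, Hspd1, Hspe1, Hsf1, Xbp1, Atf4 and Ddit3, and in some other cases to aid reading; from each further list come the members past 1.5-fold or the 3 largest differences, with some more named after their values were seen. Alternatives were other background correction, scaling, dim-probe filters, outlier spots kept, other ways to combine probes, the value table and other fold limits; restriction to genes above the 75th percentile or with several probes was chosen after seeing the data. Protein sequences were not used here.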

Additional observations from a re-analysis of the deposited data

How the results depend on the processing

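Apart from the value table, the medians of the cytosolic (0.22 to 0.31), mitochondrial (0.23 to 0.29) and CCT genes (0.04 to 0.11) were above 0 in all 13 alternatives, while those of the ER folding genes and regulators lay on both sides of 0. For 19 single members, 236 recomputed differences moved by less than their error or not at all, and 3 by more. Those were Hsph1 under normexp (0.56, below 1.5-fold) and Dnaja1 by its brightest probe or the median over probes (0.49 each). The count of 236 does not measure stability. These members' values stayed the same with no dim-probe filter, with outlier spots kept and with genes restricted by level or number of probes. The 3 changes of scaling shift all genes by 1 constant, smaller than any of these errors. Normexp left 0 members and 233 genes 1.5-fold higher in array 2 and 4 genes higher in array 1. Scaling by spike-ins lowered the cytosolic median to 0.22 and the ER folding median to -0.0487. Taken by its labels, the value table gave medians of -0.28 (cytosolic), -0.29 (mitochondrial), -0.10 (CCT) and -0.0512 (regulators), -0.70 for Hsph1, 0 members and 113 genes higher in one direction and 1 member and 707 genes in the other, because it assigns the arrays to the lots the other way round.

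Counts of genes 1.5-fold higher in array 2 and in array 1 were 1674 and 994 with no filter on dim probes (14175 genes above 0), 393 and 18 with a stricter one, 131 and 2 above the 75th percentile (4142 above 0), and 103 and 9 with 2 or more probes (2478 above 0). At a log2 difference of 0.32, 9 members and 1453 genes were higher in array 2 and 568 genes in array 1; at 2-fold, 0 members, 184 and 12 genes. No member was well above background on 1 array only, so no bound entered a median. No paired analysis was possible because each lot has 1 array. Dim probes, such as 1 each of Hsph1, Dnaja1 and Hspe1, carry larger errors than bright ones.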

Other observations

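The families to which the members belong gave a further view, chosen after the values were seen. Of 44 J-domain genes named on the array (symbols Dnaja, Dnajb and Dnajc), 40 were measured on both arrays, 18 of them higher in array 2, with a median of -0.02. Of the 34 that are not members, 15 were higher. Dnajc22 had the largest difference, from -2.84 on array 1 to -1.39 on array 2 (1.44 ± 0.22), followed by Dnajb3 (-3.42 and -2.55, 0.87 ± 0.27), and at the other end stood Dnajc25 (-2.00 and -2.31, -0.31 ± 0.22). Of the HSP70 symbols (Hspa), 6 of 12 measured genes were higher, and the 6 outside the set ran from -0.12 for Hspa13 to 0.47 ± 0.26 for Hspa12a, a weakly expressed gene at -3.29 on array 1.

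Within the set, genes that work in 1 complex differed by unequal amounts. HSP90 co-chaperones (Stip1, Chordc1, Ahsa1 and Fkbp4, 0.35 to 0.52) lay above both HSP90 genes (0.23 and 0.24), while Ptges3, the co-chaperone that closes the HSP90 cycle, differed by 0.19 ± 0.20 and Cdc37, which loads kinases, by -0.02 ± 0.14. The gaps are close to the size of the errors, and these values have no replicate.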
